A study of Homo sapiens with 6 samples.

Results

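The protein subunits of ribonuclease P (RNase P) and RNase MRP were followed in the human B lymphoid line RL, an established culture of lymphoma cells with the t(14,18) translocation of follicular lymphoma. Of the 10 subunit genes considered (RPP14, RPP21, RPP25, RPP30, RPP38, RPP40, POP1, POP4, POP5 and POP7), 9 were read by 16 probe sets, out of 54675 on the array, whose annotated gene symbol was exactly that of the subunit. In all, 19775 genes were named by such probe sets with a single symbol. RPP21 had none: the 1 probe set that names it also names other genes, and it was not used. MALC, the study's multicellular aggregates of lymphoma cells, were collected after 10 days of culture, and suspension cells during exponential growth. Aggregation, time in culture and growth phase are thus tied to the group and cannot be told apart here. Both groups are the same untreated line with the same genotype label, and each holds 3 samples with 1 Affymetrix U133 Plus 2.0 array apiece. One cell line limits both groups as a model, and whether the samples came from separate cultures is not given, so p-values measure the spread of these samples, part of which may be technical.

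RNase P is the endonuclease that removes the 5′ leader from precursor tRNAs, and RNase MRP, its relative, cuts precursor ribosomal RNA in the first internal transcribed spacer. Each enzyme is built on its own catalytic RNA, RPPH1 for RNase P and RMRP for RNase MRP, and they share most of their proteins. In the human RNase P structure the proteins form a finger module (POP1 with the POP7 and RPP25 pair), a palm module (POP5, RPP14, RPP30 and RPP40) and a wrist module (RPP21, POP4 and RPP38). Inherited RMRP mutations cause cartilage-hair hypoplasia, a disorder with impaired lymphocyte proliferation.

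Of the 16 probe sets, 13 had a mean signal high enough to be tested, and these covered all 9 genes. In MALC, 10 of the 13 fell and 0 rose in limma (0 also at an unadjusted p under 0.05), so that 8 of 9 genes had at least 1 lower probe set. Over all 32768 probe sets tested, 20.4% were lower and 21.2% higher in MALC. A gene with several probe sets has more ways to hold a lower one. In a fit with only the brightest probe set of each gene, 8 of 9 subunit genes were lower, beside 23.7% of 13765 genes. RPP40 and POP7 were the most reduced, 2.53-fold and 2.16-fold lower, whereas RPP25 did not pass the test. The median log2 change of the 13 was -0.50, beside -0.04 over all probe sets tested. The test was limma on log2(signal + 16), two-sided, with Benjamini-Hochberg adjustment over all probe sets tested and a threshold of 0.05, and fold changes are on that scale, which understates those of dim probe sets. Over all probe sets, the correlation of MALC 2 with MALC 3 was 0.9984 and that of suspension 2 with suspension 3 was 0.9985, above the 0.9949 to 0.9955 of sample 1 with either. With samples 2 and 3 of each group averaged into 1 sample the lower calls numbered 6 of 13, beside 6.19% of all probe sets. In such bulk samples fewer cells of a type and less RNA per cell cannot be told apart.

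The median signal was 80.7 to 81.7 on every array, and having 6 arrays limits the precision. All 7 B cell marker genes analysed here were above the level needed for testing. So were 4 of the 7 T and NK cell markers, 2 of the 6 myeloid and 5 of the 7 stromal and endothelial markers, so passing this level does not mark a cell type. The B cell markers had a summed signal between 42470 and 45620 in MALC, against 41710 to 44570 in suspension. The 7 T and NK cell markers summed to 393.8 to 418.0 in MALC, against 432.1 to 438.9 in suspension cells, and the 6 myeloid markers had sums between 283.4 and 301.8 in MALC, against 284.6 to 322.9 in suspension cells. The 7 stromal and endothelial markers summed to 651.4 to 719.0 in MALC, against 772.8 to 1177 in suspension. The highest of these sums was that of suspension 2, in which the collagen gene COL1A2 had a signal of 346.6 and COL3A1 173.8, against at most 54.17 and 24.22 in MALC. Suspension 3 had 126.9 and 32.71, and suspension 1 had 54.08 and 25.71. None of the marker signals was 0. Without suspension 2, 9 of 13 subunit probe sets were lower in MALC and 0 higher, beside 15.1% lower over all probe sets tested. Without suspension 3, 10 of 13 were lower and 0 higher, beside 14.9%. No fit left out both arrays.

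**Figure D1:**
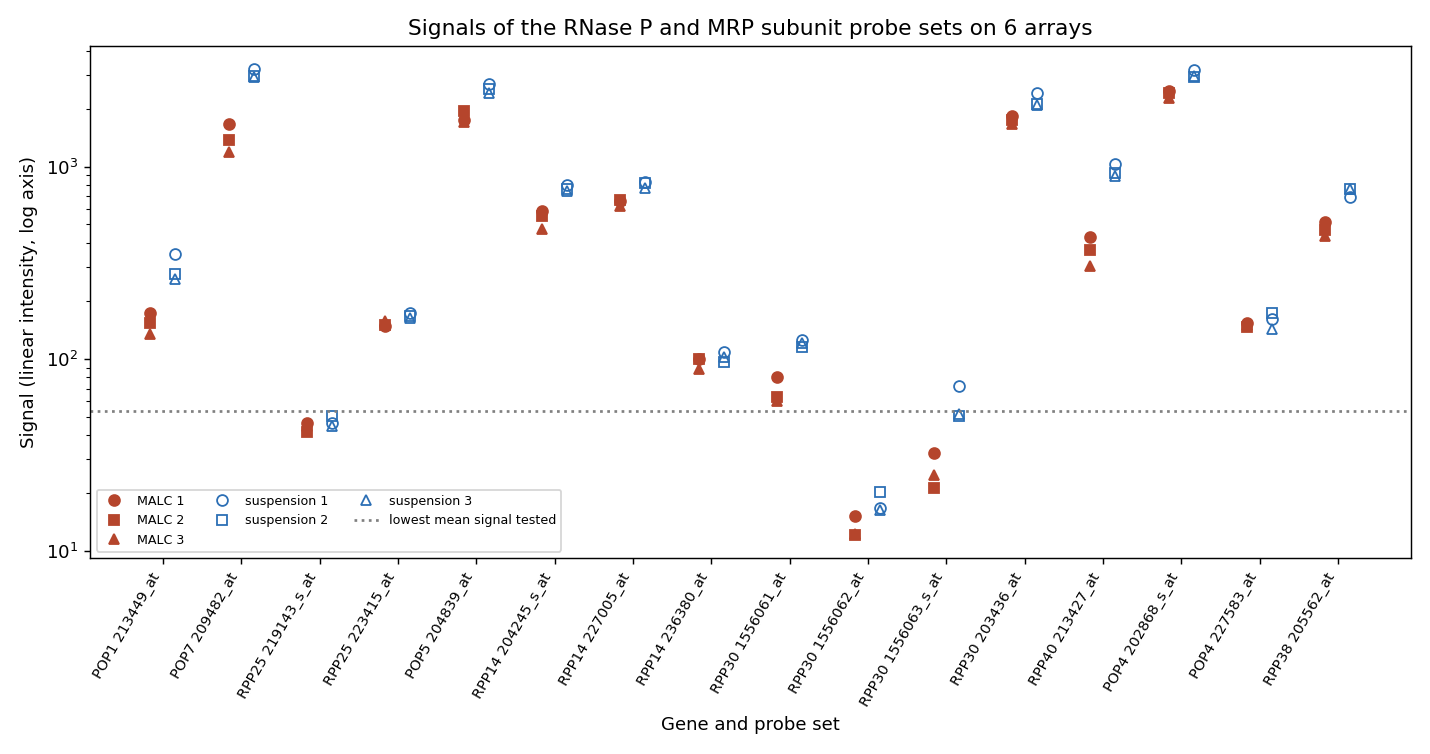
Signal of each of the 16 subunit probe sets (x axis, by gene) on a log axis, with 1 point per array, filled for MALC and open for suspension. In RPP40, POP7 and POP1 every MALC point is below every suspension point, and the dotted line marks the lowest mean signal tested, 53.4.

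In the finger module, POP1 and POP7 fell and RPP25 did not pass. POP1, the large subunit that contacts the catalytic RNA, had signals of 172.2, 153.8 and 135.0 in MALC 1, 2 and 3, against 351.7, 276.4 and 261.6 in suspension 1, 2 and 3. Every MALC array was below every suspension array. The log2 change of POP1 was -0.88 (95% interval -1.17 to -0.58, adjusted p = 0.00162), a 1.84-fold lower level. POP7, also called RPP20, pairs with RPP25 through an Alba-type fold and binds the RNA with it. Its signals were 1662, 1368 and 1197 in MALC 1, 2 and 3, against 3215, 2973 and 2932 in suspension 1, 2 and 3. The groups were thus well apart, and POP7 averaged 1409 ± 235 in MALC and 3040 ± 153 in suspension (SD, n = 3 each; log2 change -1.11, 95% interval -1.38 to -0.84, adjusted p = 0.000517).

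RPP25, the partner of POP7, was read by 2 probe sets. The one tested, 223415_at, gave 148.0, 149.5 and 157.2 in MALC and 173.3, 167.8 and 162.2 in suspension. Its groups did not overlap, but the log2 change was -0.13 (95% interval -0.28 to 0.01) and did not pass (adjusted p = 0.123). After quantile normalization it passed (log2 change -0.19, adjusted p = 0.0463). The other, 219143_s_at, had 41.37 to 46.43 in MALC and 44.80 to 50.54 in suspension. These ranges overlapped, and the probe set was too dim to be tested. RPP25L, an RPP25 paralogue outside the 10 genes, had 965, 1097 and 1095 in MALC and 1154, 1066 and 1027 in suspension (log2 change -0.04, adjusted p = 0.714).

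All 4 palm genes fell at their brightest tested probe set, as did 22.7% of all genes read in that way. RPP40 showed the largest change of all the subunits, with signals of 428.9, 370.1 and 304.9 in MALC 1, 2 and 3, against 1029, 926 and 895.9 in suspension 1, 2 and 3. Every MALC array was far below every suspension array. RPP40 averaged 368.0 ± 62.0 in MALC and 950.3 ± 69.8 in suspension (SD, n = 3 each), a log2 change of -1.34 (95% interval -1.63 to -1.05, adjusted p = 0.000365). POP5, a subunit with counterparts in archaeal RNase P, had 1739, 1948 and 1701 in MALC and 2695, 2536 and 2423 in suspension. It was 1.42-fold lower in MALC with no overlap (log2 change -0.50, 95% interval -0.68 to -0.33, adjusted p = 0.00191).

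RPP14 encodes a palm subunit, and its messenger RNA also carries the reading frame of a mitochondrial fatty acid synthesis enzyme. Probe set 204245_s_at gave 591.1, 552.9 and 474.8 in MALC and 801.8, 763.0 and 748.1 in suspension (log2 change -0.51, adjusted p = 0.00437). Probe set 227005_at gave 666.2, 670.3 and 623.5 in MALC and 828.2, 818.8 and 776.5 in suspension, a smaller fall of 0.30 on the log2 scale (adjusted p = 0.012). The RPP14 groups were apart in both. The third RPP14 probe set, 236380_at, had 88.98 to 99.89 in MALC and 96.58 to 108.4 in suspension. There the groups overlapped, and the log2 change of -0.08 (95% interval -0.24 to 0.08) did not pass (adjusted p = 0.395). The call of 227005_at was lost without suspension 2 (adjusted p = 0.0535).

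RPP30, a protein with a barrel fold and the target of a PCR assay widely used to check human nucleic acid, had the most probe sets of the subunits, 4. The probe set 203436_at gave 1842, 1743 and 1670 in MALC and 2407, 2107 and 2097 in suspension (log2 change -0.33, 95% interval -0.51 to -0.15, adjusted p = 0.0125). Without MALC 2 this call was lost (adjusted p = 0.0506). Probe set 1556061_at fell to 80.60, 63.35 and 60.16 in MALC, against 124.7, 115.0 and 120.4 in suspension (log2 change -0.70, 95% interval -0.92 to -0.48, adjusted p = 0.00125). The RPP30 groups did not overlap in either. Which RPP30 transcripts the probe sets read is not given in the sources used here, and the difference between them was not tested. The other RPP30 probe sets were too dim for the test: 1556063_s_at had 21.14 to 32.40 in MALC, against 50.33 to 71.85 in suspension cells. Probe set 1556062_at had 12.15 to 15.13 in MALC, against 16.32 to 20.22 in suspension cells. Both were lower in every MALC array.

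In the wrist module, RPP38 and 1 of the POP4 probe sets fell. RPP38, which binds kink-turn RNA, had 514.9, 467.9 and 433.5 in MALC and 695.1, 767.6 and 766.7 in suspension. It was 1.56-fold lower with the groups apart (log2 change -0.64, 95% interval -0.84 to -0.43, adjusted p = 0.00135). POP4, also called RPP29, pairs with RPP21. Its probe set 202868_s_at gave 2480, 2423 and 2287 in MALC and 3196, 2937 and 2973 in suspension, a small difference without overlap (log2 change -0.34, 95% interval -0.48 to -0.19, adjusted p = 0.00437). The second POP4 probe set, 227583_at, had 145.8 to 153.4 in MALC and 142.2 to 172.9 in suspension, with overlap and no call (log2 change -0.07, 95% interval -0.26 to 0.11, adjusted p = 0.496).

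**Figure D2:**
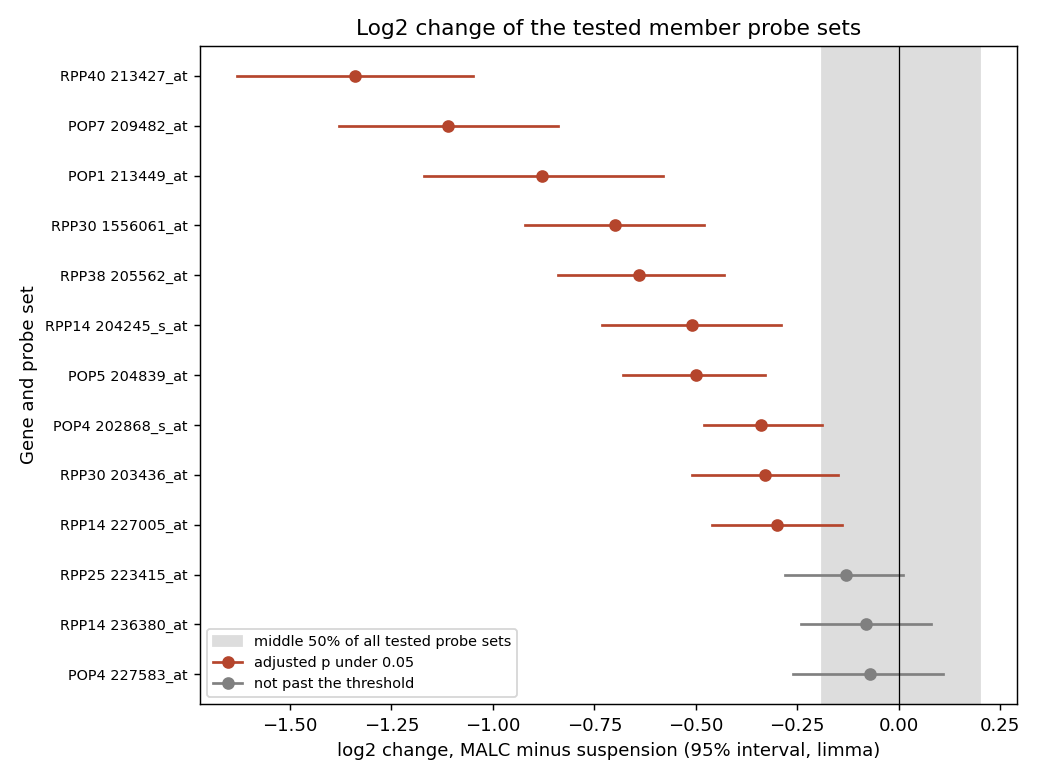
Log2 change (x axis, MALC minus suspension) of the 13 tested subunit probe sets with 95% intervals from limma, in order of size, over a band from -0.19 to 0.20 that holds the middle 50% of all tested probe sets. The intervals of RPP40 and POP7 overlap each other and lie left of those of POP5, POP4 and both brighter RPP14 probe sets, and 3 probe sets have intervals that reach 0.

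The log2 changes of the tested probe sets spanned -1.34 to -0.07. The intervals of neighbours in the order RPP40, POP7, POP1, RPP30 (1556061_at) and RPP38 overlapped, so these neighbours were not told apart. The interval of RPP40 ended at -1.05 and that of RPP38 began at -0.84, so these did not overlap; the difference between genes was not tested further. Of the tested subunit probe sets, those of RPP40 and POP7 passed the test and were at least 2-fold lower in MALC, as were 0.803% of all probe sets tested. The change of RPP40 was at percentile 0.1 of all log2 changes, POP7 at 0.5 and POP1 at 1.6. The brightest probe sets of POP4, RPP30 and RPP14, by contrast, were at 14.6, 15.2 and 16.7. The 3 tested probe sets without a call lay between percentiles 33.6 and 44.9. Each belonged to RPP14, RPP25 or POP4, and none of them exceeded a signal of 173.3 on any array.

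All 16 probe sets had a lower mean log2 signal in MALC, including the 3 not tested. A lower mean was common, since the median log2 change over all probe sets tested was -0.04. In RPP25 219143_s_at, POP4 227583_at and RPP14 236380_at the log2 change was -0.07, -0.07 and -0.08, with overlapping groups. In 11 of the 13 tested, every MALC array was below every suspension array, beside 30.3% of all probe sets tested. Averaged over the 13, the MALC arrays 1, 2 and 3 deviated from the suspension mean by -0.44, -0.52 and -0.64 on the log2 scale, and the suspension arrays 1, 2 and 3 by 0.07, -0.02 and -0.05. Over all probe sets tested the same means were 0.02, 0.03 and 0.02 in MALC and 0 in suspension. MALC 1 held the highest MALC signal in 8 of the 10 subunit probe sets that fell, as it did in 74.7% of all 6701 that fell. Suspension 1 was the highest suspension array in 9 of the 10, and in 51.8% of all that fell. Without both arrays numbered 1, an alternative chosen after seeing the data, 10 of 13 were lower in MALC, beside 27.7% of all probe sets tested.

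**Figure D3:**
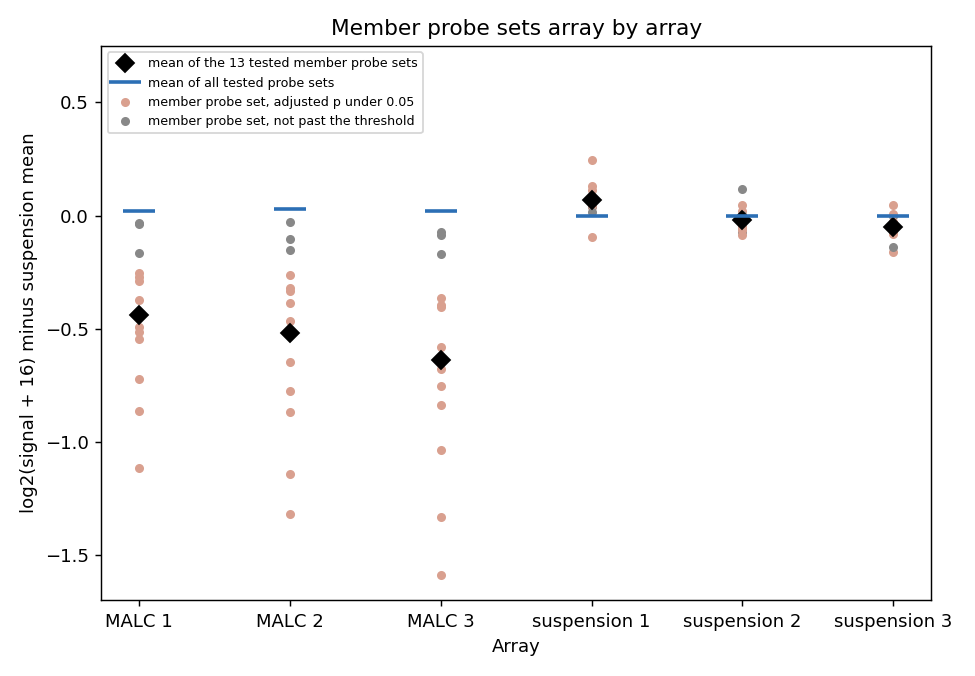
Deviation of each tested subunit probe set from its suspension mean (y axis, log2(signal + 16)) on each array, with diamonds for the mean of the 13 and bars for the mean of all tested probe sets. The diamonds sit at -0.44, -0.52 and -0.64 in MALC 1, 2 and 3 and between -0.05 and 0.07 in suspension, while the bars stay within 0.03 of 0.

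Promoter windows are shown for RPP40 and POP7, which had the largest falls among the tested subunit probe sets, and for POP4, a gene with a smaller fall whose window held matches to 2 of the motifs searched. RefSeq's promoter table (GRCh38.p14) held a window of 250 bases before to 50 after the start site for 9 of the 10 genes, RPP21 included and POP1 not. Capitals mark matches, on either strand, to 4 motifs: the E-box CACGTG of MYC, MAX and USF proteins, the ETS motif CCGGAAG, GCATGCGC from the NRF1 motif, and the YY1 motif AAGATGGCG. The windows are chr6:5003988-5004287 (minus strand) for RPP40, chr7:100705871-100706170 (plus strand) for POP7 and chr19:29606033-29606332 (plus strand) for POP4, each written 5′ to 3′ along the gene.
RPP40: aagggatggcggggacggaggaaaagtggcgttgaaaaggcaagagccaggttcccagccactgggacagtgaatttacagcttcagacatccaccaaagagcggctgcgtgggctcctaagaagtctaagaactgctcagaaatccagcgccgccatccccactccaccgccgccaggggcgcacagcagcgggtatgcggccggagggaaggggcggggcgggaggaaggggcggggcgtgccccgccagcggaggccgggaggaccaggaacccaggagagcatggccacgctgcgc
POP7: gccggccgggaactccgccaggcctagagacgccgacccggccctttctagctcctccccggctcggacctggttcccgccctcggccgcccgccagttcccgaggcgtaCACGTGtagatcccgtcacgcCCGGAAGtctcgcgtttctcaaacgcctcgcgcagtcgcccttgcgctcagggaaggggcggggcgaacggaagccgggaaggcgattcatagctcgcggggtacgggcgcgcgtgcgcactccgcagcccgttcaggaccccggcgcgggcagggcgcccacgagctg
POP4: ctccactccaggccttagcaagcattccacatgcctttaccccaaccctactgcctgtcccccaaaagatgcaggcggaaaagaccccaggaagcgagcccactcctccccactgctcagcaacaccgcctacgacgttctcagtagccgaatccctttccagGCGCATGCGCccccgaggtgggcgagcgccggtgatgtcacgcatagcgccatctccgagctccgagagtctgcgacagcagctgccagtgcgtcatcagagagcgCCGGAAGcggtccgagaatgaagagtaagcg

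CACGTG was found in 1 of the 9 windows, that of POP7 at position -140 from the start site, and in 7.26% of the 35116 windows in the table, which lists several starts for some genes. CCGGAAG was in 2 of 9, POP7 at -119 and POP4 at 20, and in 10.3% of all windows. The NRF1 sequence was in 3 of 9, RPP14, POP4 and POP5, and in 3.05% of all. In RPP14 and POP4 it matched on both strands at overlapping places. AAGATGGCG was in 0 of 9 and in 1.75% of all. RPP40, the gene with the largest fall, had no match to any of the 4. The windows had a GC content of 66.0% in RPP40, 72.3% in POP7 and 61.7% in POP4, beside a median of 58.7% over all windows. A match describes letters in a window and not binding.

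The RNA subunits were covered in part. The only probe set for RPPH1, the RNase P RNA, gave 125.5, 123.6 and 120.7 in MALC and 147.1, 141.0 and 146.7 in suspension. It was lower in every MALC array, and the fall of 0.21 on the log2 scale passed the test (adjusted p = 0.0226). That call was lost without MALC 2, MALC 3 or suspension 3. RPPH1 is a polymerase III transcript without a poly(A) tail, and one-cycle labelling starts from oligo(dT), so how much of the mature RNA this probe set reads is unknown. For RMRP no value was analysed here.

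The genes that act beside these enzymes also fell for the most part, each read at its brightest tested probe set. Among 13765 genes read in that way, 22.7% were lower and 18.6% higher in MALC, with a median log2 change of -0.06. Mitochondria of human cells use a different RNase P, made of proteins alone. Its methyltransferase subunit TRMT10C fell, with 1199, 1150 and 1057 in MALC and 1997, 2127 and 2154 in suspension (log2 change -0.87, adjusted p = 0.000269). HSD17B10, the dehydrogenase subunit, also fell, with 2059, 1455 and 1404 in MALC and 3229, 2725 and 2680 in suspension (log2 change -0.82, adjusted p = 0.00416). PRORP, the nuclease subunit itself, had 151.1, 158.7 and 169.8 in MALC and 158.0, 144.4 and 152.1 in suspension and did not pass (log2 change 0.07, adjusted p = 0.446). So 2 of 3 were lower, with a median of -0.82.

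All 4 genes of tRNA 3′ end maturation fell, with a median log2 change of -0.48. ELAC2, the RNase Z that cuts the 3′ trailer, changed by -0.69 (adjusted p = 0.00108). TRNT1, which adds the CCA end, changed by -0.48 (adjusted p = 0.00308), and SSB, the La protein that binds the 3′ ends of new polymerase III transcripts, by -0.47 (adjusted p = 0.00243). Of 10 tRNA splicing genes tested, 6 fell and 1 rose, with a median of -0.45. The largest falls were those of TSEN54, a subunit of the splicing endonuclease, at -0.59, DDX1, a helicase of the tRNA ligase complex, at -0.57 and the RNA kinase CLP1 at -0.56. TRPT1, a tRNA phosphotransferase named here after its values were seen, rose by 0.38, with 684.5 to 751.3 in MALC and 518.7 to 580.1 in suspension.

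On the ribosomal RNA side, where RNase MRP acts, 12 of 14 tested genes of pre-rRNA spacer processing fell and 1 rose, with a median log2 change of -0.62. ISG20L2, an exonuclease that trims a large-subunit rRNA precursor, changed most and was 2.01-fold lower (adjusted p = 0.00047), followed by NOL12, a nucleolar protein, with a log2 change of -0.86 and PES1, of the PeBoW complex, at -0.76. FCF1, a nuclease of early small-subunit processing, was the gene that rose, named here after its values were seen. It rose in 1 of its 3 probe sets, 215567_at, with 278.4 to 317.4 in MALC and 182.7 to 225.5 in suspension (log2 change 0.46, adjusted p = 0.00791). The other FCF1 probe sets did not pass, 219927_at with a log2 change of -0.30 (adjusted p = 0.0559) and 240928_at with 0.11 (adjusted p = 0.458). Of 13 genes of the nuclear exosome and its cofactors, 12 fell and 0 rose, with a median of -0.41. EXOSC9, EXOSC2 and EXOSC3, subunits of its ring and cap, changed by -0.80, -0.73 and -0.65.

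**Figure D4:**
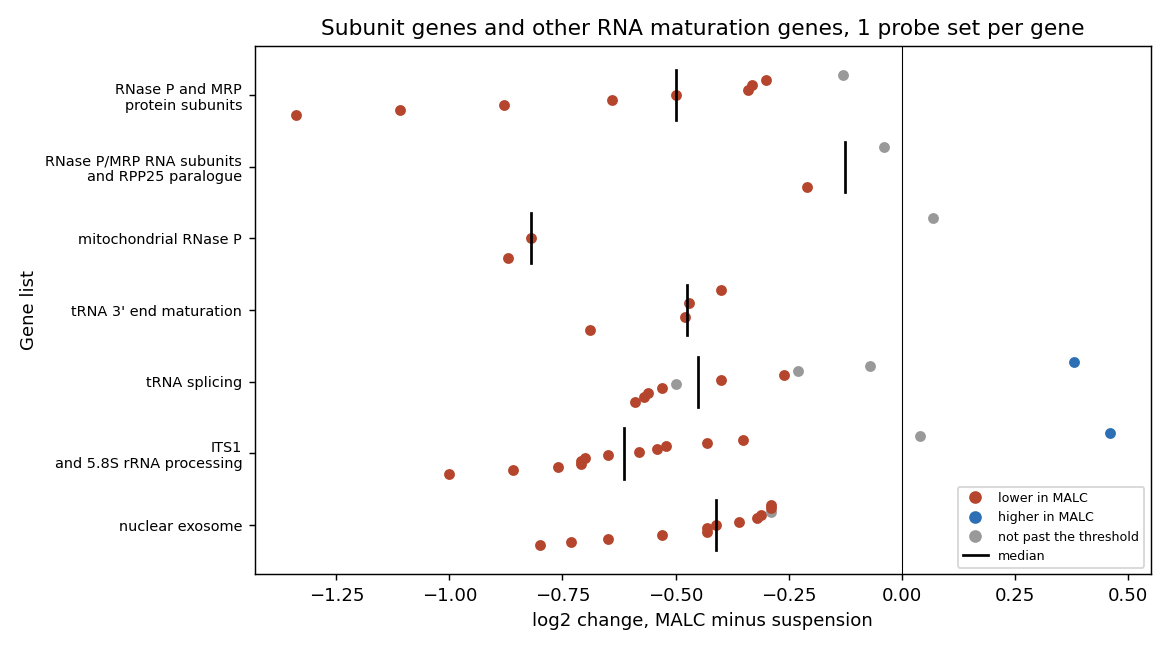
Log2 change (x axis, MALC minus suspension) of each gene at its brightest tested probe set, by gene list (y axis), coloured by call, with a bar at each list's median. The subunit genes span -1.34 to -0.13, and 2 genes of the other lists lie on the right as higher in MALC, TRPT1 and FCF1.

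RPP40 was the subunit with the largest change, and its profile over the 6 arrays was set beside those of 13756 other genes. Each of these genes was read at whichever of its tested probe sets correlated best with RPP40, not at its brightest. The closest were ZMPSTE24, a protease that matures prelamin A, UBE2T, a ubiquitin-conjugating enzyme of the Fanconi anaemia pathway, and NUP188, a nuclear pore scaffold protein. Their Pearson correlations with RPP40 were 0.9998, 0.9998 and 0.9997 (log2 values, n = 6 arrays). The points share 2 groups of 3 arrays, and 507 genes had a correlation of at least 0.99, so a high value is common here. ZMPSTE24 had 1474, 1322 and 1145 in MALC and 3055, 2769 and 2741 in suspension.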

How the data were processed

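Expression was measured in 3 MALC and 3 suspension samples of RL cells. The deposited values were intensities on a linear scale, 1 per probe set and array. The submitters' processing notes name MAS5; its version, the background correction and the normalization are not given in the sources used here. If the arrays were scaled to each other, a shift of all transcripts between groups is hidden. Detection calls were not used. Gene symbols came from the platform annotation, from probe sets with 1 symbol, updated through Entrez identifiers with a RefSeq table (GRCh38.p14); no probe set positions were used.

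Intensities were set to log2(value + 16). Of 54613 probe sets that are not controls, the 32768 with a mean at or above the 40th percentile (a signal of 53.4) were tested with limma 3.58.1 in R 4.3.3 (lmFit, eBayes with trend). The fit was checked on simulated data with independent noise and a small share of probe sets changed, each at least 2-fold. These data differ in all of this, so the check does not cover the calls made here. Members, lists, tests and the rule for named genes were chosen with earlier results of these data known: all subunit probe sets, up to 3 genes per list (the largest changes that passed), all genes of lists of 3, and the 3 genes most like the subunit with the largest change. The motifs were chosen after the values were seen.

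Groups share sample numbers. Deviations from group means correlated at 0.25, 0.17 and 0.14 for numbers 1, 2 and 3, over the 0.1 that a rule asked of every pair. But MALC 3 with suspension 2 also reached 0.18, and MALC 2 with suspension 3 reached 0.14. The rule therefore cannot tell pairing by number from a split of number 1 against numbers 2 and 3. What a number stands for is not given in the labels. The number entered as a block in 1 alternative. Across probe sets, arrays correlated at 0.9949 to 0.9985 within groups and 0.9768 to 0.9888 between them.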

Additional observations from a re-analysis of the deposited data

How the results depend on the processing

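Of 19 alternatives, those over probe sets gave 9 to 12 lower subunit probe sets and 0 higher, except with samples 2 and 3 of each group averaged into 1, where 6 were lower (RPP40, POP7, POP1, RPP38, POP5 and RPP30 1556061_at) and the cause was not tested; that fit has fewer samples. Over all probe sets, the share lower ran from 12.4% without a filter to 31.5% with array weights. It was 6.19% with samples averaged. Leaving out each array in turn gave 9 to 10 lower and 0 higher, beside 13.5% to 22.8% lower over all probe sets. These fits gave 8 genes in every case, and medians of -0.53 to -0.42. With the sample number as a replicate block, 10 were lower and 0 higher, beside 21.7% lower over all probe sets. No call of a subunit probe set changed there, and the median was -0.50. Without a filter 12 of 16 were lower, beside 12.4% of all probe sets. Among the 12 were RPP30 1556063_s_at (adjusted p = 0.00251) and 1556062_at (0.0275). The count of genes was 8 of 9 with 1 probe set per gene, beside 23.7% of all genes. It was also 8 of 9 with the mean of the probe sets per gene, beside 24.4%. Counting genes with at least 1 lower probe set, it was 9 after quantile normalization and 6 with samples averaged. There 23.2% and 6.19% of all probe sets were lower. With samples averaged the probe sets that lost their call were RPP14 204245_s_at (adjusted p = 0.0581), RPP14 227005_at (0.123), RPP30 203436_at (0.109) and POP4 202868_s_at (0.0725). No subunit value changed sign under any alternative run. The calls of RPP40, POP7, POP1, POP5 and RPP38 held in all 19 alternatives. Over all probe sets, calls numbered 13649, beside 5128 with samples averaged. In the lists, leaving out each array in turn gave 0 to 1 of 2 lower among RPPH1 and RPP25L. It gave 2 of 3 lower in mitochondrial RNase P and 3 to 4 of 4 in 3′ end maturation. In tRNA splicing 5 to 8 of 10 were lower and 1 higher. In spacer processing 11 to 12 of 14 were lower and 1 higher, and in the exosome 10 to 13 of 13 were lower. The shares given above for such fits are over probe sets, whereas these lists are read at 1 probe set per gene. Dim probe sets limit what can be seen, since no background level was given.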
